A study of Mus musculus with 12 samples.

Results

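The genes described here are 10 nuclear receptors of mouse embryonic fibroblasts (MEFs): Nr4a1, Nr4a2 and Nr4a3 of the Nr4a family, Nr2f1 and Nr2f2, which encode COUP-TFI and COUP-TFII, the retinoic acid receptor genes Rara, Rarb and Rarg, and the retinoid X receptor genes Rxra and Rxrg. They were taken as all non-control probes that carry 1 of these names, which gave 15 probes for 10 of the 20836 genes tested. All 15 probes passed the filter on dim signals, which asks that a probe be well above background on every array of at least 1 group. All 10 genes therefore entered the tests, Nr4a3 only through the GR-C3 Dex arrays, where it was highest. Nr2f2 had 3 probes, Rarb, Rarg and Rxra had 2 each, and each of the others had 1.

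The cells were connective tissue cells grown from E12.5 embryos of a C57Bl/6 background. WT MEFs were compared with MEFs homozygous for the GR-C3 knockin, in which exon 2 of the glucocorticoid receptor gene Nr3c1 keeps the start codon of the short GR-C3 isoform and has ATC in place of ATG at the other start codons. The allele was made in ES cells and passed on from 1 positive clone, and the hygromycin cassette was then removed by crossing to Flp-deleter mice. Both genotypes were treated for 6 h with vehicle or with the synthetic glucocorticoid dexamethasone (Dex) at 100 nM, and each of the 4 groups held 3 one-colour arrays. Per the labels the 3 arrays of a group are biological replicates. Whether these were separate embryos or cultures is not stated, so the p-values cover the spread among these arrays, which may be technical. A level is the log2 signal of a probe relative to the 75th percentile of its array, and a difference is given as log2 ± its standard error from limma, with p adjusted over all genes tested and called under 0.05. In bulk RNA, fewer cells of a type and less RNA per cell cannot be told apart.

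Features of these arrays bear on every comparison. Apart from the rest stood the array labelled WT vehicle replicate 1: its values correlated across genes with the other 2 WT vehicle arrays at r = 0.983 and with the WT Dex arrays at 0.987 to 0.989. Fkbp5, a co-chaperone gene that glucocorticoids raise, lay at 1.51 on that array. Replicates 2 and 3 of its group had -2.64 and -2.74, and the WT Dex arrays had 1.89 to 2.15. The gene goes against the label of that array, so calls of the receptor genes are given with all 12 arrays and with the 11 arrays without it, and values of other genes name the set used where it is not 12. The 11-array WT vehicle group holds 2 arrays. Sex-linked genes also split by genotype: the Y-linked gene Ddx3y was well above background on 6 of 6 WT arrays and 0 of 6 GR-C3 arrays, and Xist, expressed from the inactive X chromosome, on 0 of 6 and 6 of 6. Y-linked Eif2s3y passed on 6 of 6 and 1 of 6. Y-linked Kdm5d passed on all arrays, at -1.97 to -1.23 in WT and -5.69 to -4.81 in GR-C3 cells. Genotype and sex of the cultures therefore cannot be told apart in these data. Nr3c1 lay between 1.06 and 1.86 on all 12 arrays, and a transcript level does not check a change of start codons. The 12 arrays lay on 4 slides, none of which held both genotypes under the same treatment. On each array 70.7 to 78.4% of probes passed as well above background. Precision is limited by how many arrays there are.

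The marker genes of MEFs were present, and some of them and some of other cell types moved with genotype. Fibroblast markers such as Col1a1 were above background on all arrays for 10 of 10 genes, with summed signals of 733 to 1018 times the 75th percentile. Among them Dcn lay at 3.30 to 3.51 on WT and 2.40 to 2.55 on GR-C3 arrays. Col3a1 lay at 6.08 to 6.26 and 5.53 to 5.83. The ranges of the other fibroblast markers overlapped between the genotypes. The 4 cartilage markers were above background throughout, with sums of 43.3 to 56.4 in WT and 5.68 to 6.09 in GR-C3 arrays. Sums were higher in GR-C3 than in WT arrays for 4 Schwann and neural crest markers (1.11 to 1.23 against 0.315 to 0.456), for 5 neural markers (10.5 to 12.2 against 4.77 to 6.32) and for 4 skeletal muscle markers (61.3 to 78.5 against 37.4 to 52.8). Most of the muscle sum was Actc1, at log2 levels of 5.21 to 6.23. Under vehicle Actc1 and Des were higher in GR-C3 cells (0.71 ± 0.13 and 3.59 ± 0.15). Myod1 and Myog were not called there (adjusted p = 0.442 and 0.343). Under Dex Myod1 was higher (0.71, adjusted p = 0.0144) and Myog was not called (adjusted p = 0.403). Endothelial sums were 1.85 to 2.48 against 0.528 to 0.661, with Cdh5 and Tie1 above background on no array, and epithelial sums were 1.59 to 2.44 against 0.466 to 0.711, with Cdh1 above background on no array. In the epithelial list the keratin gene Krt18 was higher in GR-C3 cells by 2.30 ± 0.15 under vehicle (adjusted p = 2.67e-06) and 2.48 ± 0.15 under Dex, while Krt14 was lower under Dex (-0.88 ± 0.20, adjusted p = 0.00747) and differed by -0.02 ± 0.20 under vehicle. Macrophage and leukocyte sums overlapped, at 0.348 to 0.412 in GR-C3 and 0.344 to 0.490 in WT, while Ptprc of that list was lower in GR-C3 cells (-1.25, adjusted p = 0.0148, under vehicle and -1.04, adjusted p = 0.0300, under Dex). The part of these cell types in the genotype differences below was not tested.

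Retinoic acid receptors bind DNA as pairs with a retinoid X receptor and switch from repression to activation when they bind all-trans retinoic acid, which cells make from vitamin A. Rarb is itself a textbook target of retinoic acid through a response element in its promoter. COUP-TFs are orphan receptors known for binding the same kind of repeated sites and for competing with retinoid receptors, and COUP-TFII is known in mesenchymal cells. Nr4a receptors have no classical ligand. They are induced as immediate early genes by cAMP, growth factors and stress, and are known for interplay with the glucocorticoid receptor.

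Rarb was the receptor that differed most between the genotypes, while few of the 10 genes passed the test for Dex. In GR-C3 against WT cells under vehicle, Nr4a1 and Rarb were higher and Rara was lower with 12 arrays, 3 of 10 genes, where 24.8% of all genes tested were called. With 11 arrays Nr2f1 was also lower, 4 of 10 genes against 27.3% of all genes. Under Dex, Rarb was higher and Nr4a2 and Rarg were lower in GR-C3 cells with 12 arrays, 3 of 10 genes against 29.6% of all genes. With 11 arrays Rara was lower too, 4 of 10 genes against 40.7%. These shares lie near those of all genes.

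Dex called none of the 10 genes with 12 arrays, where 0.12% of all genes were called in WT cells and 0.101% in GR-C3 cells. With 11 arrays 1 of the 10 fell in WT cells, Rarb, where 12.2% of all genes were called. In GR-C3 cells 1 of the 10 fell, Nr4a1, where 3.47% of all genes were called. For the interaction, which is the Dex difference in GR-C3 minus that in WT, limma called none of the 10 genes. It called 0% of all genes with 12 arrays, where 1282 had an unadjusted p under 0.05, and 1.14% with 11 arrays. Of the 10 genes, Nr4a1 and Nr2f2 had an unadjusted interaction p under 0.05 with 12 arrays, and Nr4a1, Rarb and Rarg with 11. The median difference of the 10 genes between genotypes was -0.20 under vehicle and -0.20 under Dex with 12 arrays, beside 0.11 and 0.13 for all genes tested. Quantile normalization put the median of all genes at 0.06 and 0.05.

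**Figure D1:**
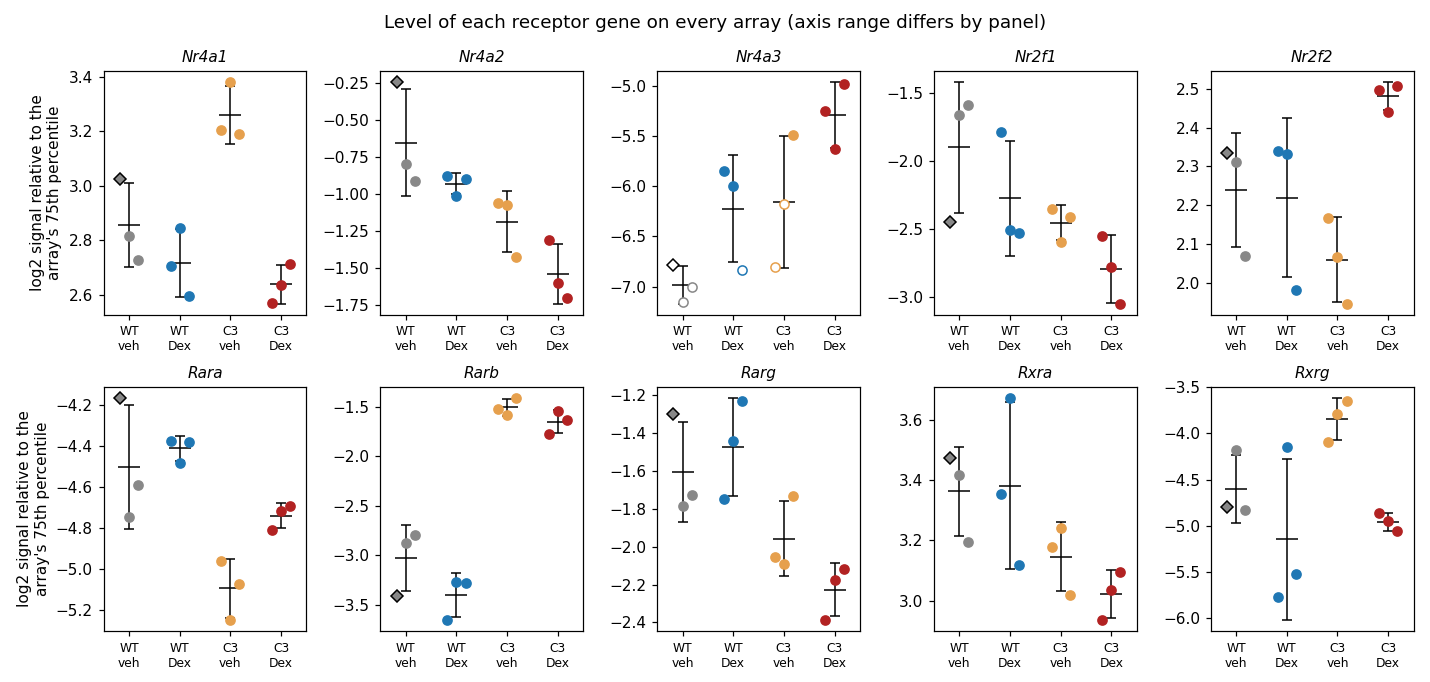
Level of each of the 10 receptor genes on every array, as log2 signal minus the array's 75th percentile, in the 4 groups (veh, vehicle; C3, GR-C3). Points are arrays, black bars are the mean and SD of 3 arrays, the diamond is the array labelled WT vehicle replicate 1, and open points were not well above background. Rarb lies above every WT array on all 6 GR-C3 arrays.

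The promoter of Rarb is shown because it holds the repeat through which retinoic acid receptors are known to act on this gene. RefSeq promoter windows on GRCm38.p6 were found for 10 of 10 genes, 17 windows in all, and the 250 bases before each start site were searched on both strands. The repeat searched was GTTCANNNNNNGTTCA, a direct repeat whose hexamers are 5 bases apart. It was found in 1 of the 17 windows, that of Rarb, and in 0.067% of all 32851 windows. It starts 52 bases before the start site. This build differs from mm7, the build of all probe positions given here. A match is a description of these letters and not of binding. The window lies at chr14:16575477-16575726 on the minus strand and is printed with the repeat's matched letters in capitals.
Rarb: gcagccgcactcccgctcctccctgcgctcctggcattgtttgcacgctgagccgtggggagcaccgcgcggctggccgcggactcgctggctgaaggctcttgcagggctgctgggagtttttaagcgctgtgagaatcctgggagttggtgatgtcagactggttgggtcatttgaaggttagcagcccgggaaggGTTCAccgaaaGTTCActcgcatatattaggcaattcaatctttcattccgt

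Rarb encodes the retinoic acid receptor beta. Its main probe (build mm7, chromosome 14, 14246146 to 14246205, minus strand) lay at -3.41, -2.88 and -2.79 on WT vehicle arrays 1, 2 and 3, and at -3.65, -3.26 and -3.28 with Dex. On the GR-C3 arrays it lay at -1.52, -1.58 and -1.41 under vehicle and at -1.77, -1.54 and -1.64 with Dex. The GR-C3 arrays were all above all WT arrays, and the array labelled WT vehicle replicate 1 lay within the range of the WT Dex arrays. Rarb was 2.88-fold higher in GR-C3 than in WT cells under vehicle (1.52 ± 0.17, adjusted p = 9.21e-05) and 3.37-fold higher under Dex (1.75 ± 0.17, adjusted p = 3.34e-05). With 11 arrays the differences were 1.33 ± 0.13 (adjusted p = 7.88e-05) and 1.75 ± 0.12 (adjusted p = 4.12e-06). With slide as a block they were 0.91 (adjusted p = 0.0155) and 1.49 (adjusted p = 0.001435) on 12 arrays.

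In WT cells the Dex difference of Rarb was -0.37 ± 0.17 with 12 arrays (adjusted p = 0.295) and -0.57 ± 0.13 with 11 (adjusted p = 0.0211). Within slide 2, which held 2 WT vehicle arrays and 1 WT Dex array, it was -0.82. Slide as a block rested on the same contrast (-0.82, adjusted p = 0.0101). WT vehicle replicate 1, as labelled, was the only array on slide 1, so it adds nothing to a difference fitted with that block, here and for every gene, and such a value with 12 arrays is no separate support for one with 11. The call with 11 arrays was lost with the mean of both probes (-0.27, adjusted p = 0.260), with normexp on repaired local backgrounds (-0.32, adjusted p = 0.163), and without WT vehicle replicate 2 (-0.61, adjusted p = 0.1065) or replicate 3 (-0.53, adjusted p = 0.163). In the set of 11, leaving out either of these leaves 1 WT vehicle array, whose spread is taken from the other groups, here and for the genes that follow. In GR-C3 cells the Dex difference was -0.15 (adjusted p = 0.759 with 12 arrays and 0.531 with 11). The difference between these 2 responses was 0.42 ± 0.18 with 11 arrays (adjusted p = 0.325), and it did not pass the test.

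A further Rarb probe, annotated in the files to the RAR-beta 4 isoform (chromosome 14, 14362927 to 14389669), passed as above background on 0 of 6 WT arrays. Among GR-C3 arrays it passed as above background on 2 of 3 with vehicle and 3 of 3 with Dex. It passed the filter only through the GR-C3 Dex arrays, where it was highest, so differences from that group are a description and no support for the main probe. Its level in GR-C3 Dex cells was at least 1.63-fold that in WT Dex cells. Under vehicle, where not every GR-C3 array was above background, its measured values differed by 0.69 ± 0.31 (adjusted p = 0.135). For Dex in GR-C3 cells its difference was 0.64 ± 0.31, opposite in sign to the main probe, and did not pass (adjusted p = 0.484).

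Rara encodes the retinoic acid receptor alpha, and its probe (chromosome 11, 99079584 to 99079643, plus strand) was well above background on all arrays. On WT arrays it lay at -4.17, -4.75 and -4.59 under vehicle and at -4.37, -4.48 and -4.38 with Dex. On GR-C3 arrays it lay at -4.96, -5.25 and -5.07 under vehicle and at -4.81, -4.72 and -4.69 with Dex. The GR-C3 vehicle arrays were below all others, and the GR-C3 Dex arrays were below the WT Dex arrays. Under vehicle the genotype difference was -0.59 ± 0.14 (1.51-fold lower, adjusted p = 0.0123), and -0.42 ± 0.11 with 11 arrays (adjusted p = 0.0150). Under Dex it was -0.33 ± 0.14 with 12 arrays (adjusted p = 0.104) and -0.33 ± 0.09 with 11 (adjusted p = 0.0205). Normexp on repaired local backgrounds gave -0.13 (adjusted p = 0.330) under vehicle and -0.17 (adjusted p = 0.174, 11 arrays) under Dex. Slide as a block gave -0.38 (adjusted p = 0.289) and -0.34 (adjusted p = 0.253, 11 arrays). The call under vehicle was also lost without GR-C3 vehicle replicate 2 (adjusted p = 0.0577), and with 11 arrays without it (adjusted p = 0.0533) or without WT vehicle replicate 3, which leaves 1 array in that group (-0.35, adjusted p = 0.149). The 11-array call under Dex was lost without WT Dex replicate 3 (0.0515), or without GR-C3 Dex replicate 1 (0.0657) or 2 (0.0506).

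Dex levels of Rara in GR-C3 cells were above vehicle levels on every array, by 0.35 ± 0.14, which did not pass with 12 arrays (adjusted p = 0.375) or with 11 (adjusted p = 0.0807). In WT cells the Dex difference was 0.09 ± 0.14 with 12 arrays and 0.26 ± 0.11 with 11 (adjusted p = 0.791 and 0.149).

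Rarg encodes the retinoic acid receptor gamma, known in cartilage and skin. Its main probe (chromosome 15, 102222035 to 102222094, minus strand) lay at -1.30, -1.78 and -1.73 on WT vehicle arrays and at -1.75, -1.44 and -1.23 on WT Dex arrays. The GR-C3 arrays had -2.05, -2.09 and -1.73 under vehicle and -2.39, -2.17 and -2.12 with Dex. The genotypes overlapped under vehicle and not under Dex. Under Dex, Rarg was 1.68-fold lower in GR-C3 cells (-0.75 ± 0.17, adjusted p = 0.00865, and 0.00314 with 11 arrays). The other probe, within 102222347 to 102224987, gave -0.59 ± 0.16 (adjusted p = 0.0215 over all probes kept). Under vehicle the main probe differed by -0.35 ± 0.17 (adjusted p = 0.165) and the other by -0.52 ± 0.16 (adjusted p = 0.0398). With slide as a block the difference under Dex was -1.23 (adjusted p = 0.00546). Dex against vehicle did not pass in WT (0.13 ± 0.17, adjusted p = 0.746) or GR-C3 cells (-0.27 ± 0.17, adjusted p = 0.562). Col2a1 and Acan, the matrix genes of cartilage, were lower in GR-C3 cells under Dex by 3.45 ± 0.10 and 0.87 ± 0.21 on the log2 scale, and the part of cartilage-like cells in the Rarg difference was not tested.

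The retinoid X receptors are the shared partners of retinoic acid receptors. The main Rxra probe (chromosome 2, 27770202 to 27770261, plus strand) lay at 3.47, 3.42 and 3.20 on WT vehicle arrays and at 3.35, 3.67 and 3.12 with Dex. In GR-C3 cells it lay at 3.18, 3.24 and 3.02 under vehicle and at 2.94, 3.04 and 3.09 with Dex. The GR-C3 Dex arrays were below all WT arrays by a small margin. Neither genotype difference passed, at -0.22 ± 0.14 under vehicle (adjusted p = 0.303) and -0.36 ± 0.14 under Dex (adjusted p = 0.0792, and 0.0618 with 11 arrays). The other Rxra probe did not show this margin, at 0.17 ± 0.14 and 0.01 ± 0.14. The main probe's genotype difference under Dex was called with quantile normalization and without WT Dex replicate 3, with 12 or 11 arrays. With 11 arrays it was also called with normexp on repaired local backgrounds and with replicate number as a block. The 95% interval of the Dex difference on the main probe ran from -0.30 to 0.33 in WT cells and from -0.44 to 0.19 in GR-C3 cells.

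The Rxrg probe (chromosome 1, 167616274 to 167616333, plus strand) was well above background on all arrays. It lay at -4.80, -4.18 and -4.83 on WT vehicle arrays and at -5.77, -4.15 and -5.52 with Dex. The GR-C3 values were -4.09, -3.79 and -3.65 under vehicle and -4.86, -4.95 and -5.06 with Dex. All GR-C3 Dex arrays were below all GR-C3 vehicle arrays, while WT Dex and WT vehicle arrays overlapped. The Dex difference in GR-C3 cells was -1.11 ± 0.35, which did not pass (adjusted p = 0.252 with 12 arrays and 0.148 with 11). Within slide 4, which held 3 Dex arrays and 1 vehicle array of GR-C3 cells, it was -1.30. Rxrb, the third gene of the family and no member of the set, lay at 0.88 ± 0.05 (SD, n = 3) in WT vehicle and 1.16 ± 0.025 in GR-C3 vehicle cells, a difference that did not pass (adjusted p = 0.0950).

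**Figure D2:**
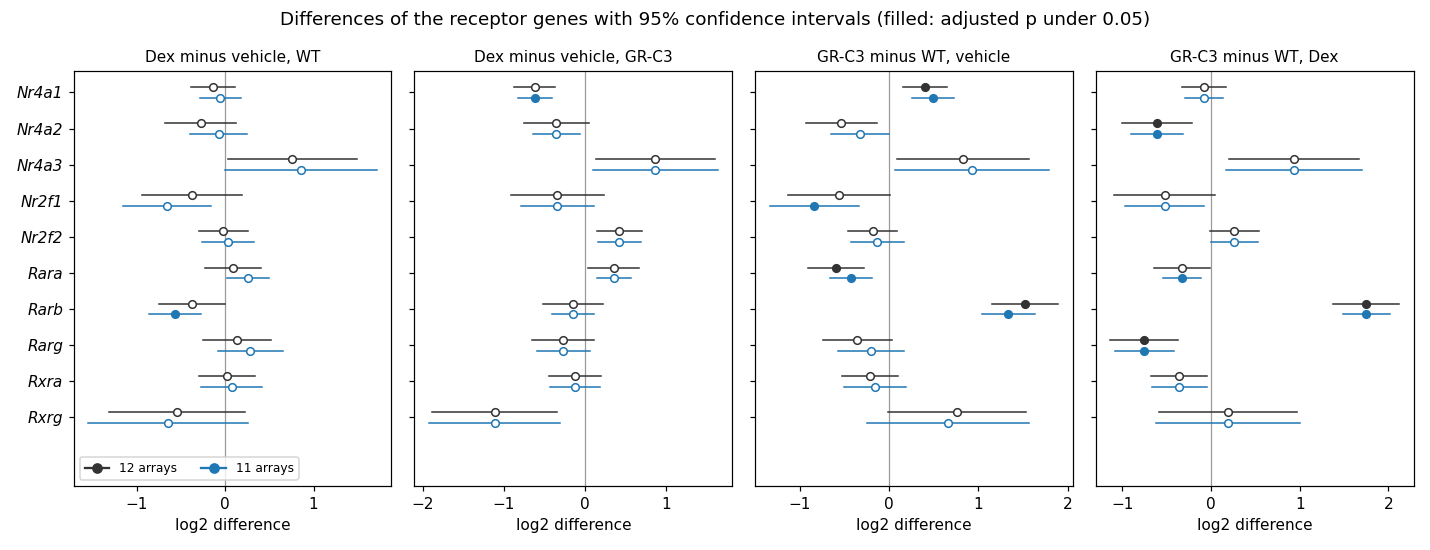
Log2 difference of each receptor gene for Dex against vehicle in each genotype and for GR-C3 against WT under each treatment, with 95% confidence intervals from limma on 12 arrays (dark) and 11 arrays (blue). Filled points have an adjusted p under 0.05. Rarb stands at 1.52 and 1.75 in the genotype panels, and Nr4a1 at -0.62 for Dex in GR-C3 cells.

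The promoters of the Nr4a genes are shown because all 3 hold several copies of the core of the cAMP response element. This core, CGTCA, searched on both strands, occurred 4 times in each of the 3 windows. Over all 32851 windows 17.8% held at least 1 copy and 0.137% held 4 or more, and among the other 14 windows of the set 1 window of Rara held a copy. The full palindrome TGACGTCA was in none of the 17 windows and in 1.55% of all. The glucocorticoid response element, searched by its consensus palindrome, was in none of the 17 windows and in 0.387% of all. The windows lie at chr15:101266596-101266845 (plus strand), chr2:57124004-57124253 (minus strand) and chr4:48045055-48045304 (plus strand), with the core in capitals.
Nr4a1: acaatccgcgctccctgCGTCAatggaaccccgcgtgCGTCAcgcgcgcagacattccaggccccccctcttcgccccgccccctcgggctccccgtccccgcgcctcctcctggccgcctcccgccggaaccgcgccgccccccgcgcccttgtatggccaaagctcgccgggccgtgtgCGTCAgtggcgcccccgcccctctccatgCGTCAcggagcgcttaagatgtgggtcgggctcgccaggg
Nr4a2: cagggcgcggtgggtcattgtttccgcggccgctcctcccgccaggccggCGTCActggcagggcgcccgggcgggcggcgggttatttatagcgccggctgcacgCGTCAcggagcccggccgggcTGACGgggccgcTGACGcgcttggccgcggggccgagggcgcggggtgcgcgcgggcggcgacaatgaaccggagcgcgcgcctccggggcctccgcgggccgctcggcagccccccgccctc
Nr4a3: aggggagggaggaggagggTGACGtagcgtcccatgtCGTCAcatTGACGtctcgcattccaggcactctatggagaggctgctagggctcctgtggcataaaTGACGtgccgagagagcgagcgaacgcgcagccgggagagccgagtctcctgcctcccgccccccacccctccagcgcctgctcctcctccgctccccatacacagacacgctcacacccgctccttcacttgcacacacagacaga

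Nr4a1 encodes NUR77. Its probe (chromosome 15, 101260484 to 101260543, plus strand) lay at 3.02, 2.82 and 2.73 on WT vehicle arrays and at 2.71, 2.85 and 2.60 on WT Dex arrays. On GR-C3 arrays it lay at 3.21, 3.38 and 3.19 under vehicle and at 2.57, 2.63 and 2.71 with Dex. The GR-C3 vehicle arrays were above every other array, and the other 3 groups overlapped. Under vehicle Nr4a1 was 1.32-fold higher in GR-C3 cells (0.40 ± 0.11, adjusted p = 0.0247), and 1.40-fold higher with 11 arrays (0.49 ± 0.11, adjusted p = 0.00779). Under Dex the difference was -0.08 ± 0.11 (adjusted p = 0.626). The call under vehicle on 12 arrays was lost without WT vehicle replicate 2 (adjusted p = 0.0678) or 3 (0.0893), without GR-C3 vehicle replicate 1 (0.0524) or 2 (0.103), and with slide as a block (0.51, adjusted p = 0.1525). With 11 arrays it was lost without WT vehicle replicate 3, which leaves 1 array in that group, at a difference of 0.44 (adjusted p = 0.0805).

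Dex lowered Nr4a1 in GR-C3 cells with 11 arrays, by 1.54-fold (-0.62 ± 0.09, adjusted p = 0.00670). With 12 arrays the same difference missed the threshold (adjusted p = 0.0749), and within slide 4 it was -0.55, which with slide as a block on 11 arrays had an adjusted p of 0.114. In WT cells the difference was -0.14 ± 0.11 with 12 arrays and -0.05 ± 0.11 with 11 (adjusted p = 0.562 and 0.765). The difference between the responses was -0.48 ± 0.16 with 12 arrays (adjusted p = 0.661) and -0.57 ± 0.14 with 11 (adjusted p = 0.104), so a difference between the genotypes in the Dex response was not shown.

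Nr4a2 encodes NURR1. Its probe (chromosome 2, 57108976 to 57109035, minus strand) lay at -0.24, -0.80 and -0.92 on WT vehicle arrays and at -0.88, -1.01 and -0.90 with Dex. The GR-C3 arrays had -1.06, -1.07 and -1.42 under vehicle and -1.31, -1.61 and -1.70 with Dex. All 6 GR-C3 arrays were below all 6 WT arrays. Under Dex Nr4a2 was 1.53-fold lower in GR-C3 cells (-0.61 ± 0.18, adjusted p = 0.0278, and 0.00488 with 11 arrays). Under vehicle the difference was -0.53 ± 0.18 with 12 arrays (adjusted p = 0.0529) and -0.33 ± 0.14 with 11 (adjusted p = 0.120). With slide as a block the difference under Dex was -0.23 (adjusted p = 0.512). On 12 arrays that call was also lost without WT Dex replicate 1 (adjusted p = 0.0704) or 3 (0.0794), or without GR-C3 Dex replicate 2 (0.0792) or 3 (0.0991). No Dex difference passed (-0.28, adjusted p = 0.457, for WT cells and -0.35, adjusted p = 0.475, for GR-C3 cells).

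Nr4a3 encodes NOR1 and was at the edge of detection. Its probe, which spans 48081632 to 48084818 on chromosome 4, was well above background on 0 of 3 WT vehicle, 2 of 3 WT Dex, 1 of 3 GR-C3 vehicle and 3 of 3 GR-C3 Dex arrays. Its measured values were -6.79, -7.16 and -7.01 on WT vehicle arrays and -5.84, -5.99 and -6.83 with Dex. On GR-C3 arrays they were -6.80, -6.18 and -5.49 under vehicle and -5.25, -5.63 and -4.98 with Dex. The GR-C3 Dex arrays were above all WT arrays and overlapped with GR-C3 vehicle replicate 3. Against WT vehicle, measured values differed by 0.76 ± 0.33 in WT Dex cells (adjusted p = 0.286) and by 0.83 ± 0.33 in GR-C3 vehicle cells (adjusted p = 0.0954). Neither passed, and no fold bound is given, since not all arrays of either brighter group were well above background. Differences from the GR-C3 Dex arrays, through which alone the probe passed the filter, are a description. Dex in GR-C3 cells gave 0.87 ± 0.33 (adjusted p = 0.359), and the genotype difference under Dex was 0.94 ± 0.33 (adjusted p = 0.0552). The signs of Nr4a1 and Nr4a2 for Dex in both genotypes were opposite to that of Nr4a3, and no test of Nr4a2 or Nr4a3 for Dex passed.

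Of the COUP-TF genes, Nr2f1 was called between the genotypes under vehicle with 11 arrays, and Nr2f2 was not called with its main probe on 12 or 11 arrays. The Nr2f1 probe (chromosome 13, 75204046 to 75204105, minus strand) lay at -2.45, -1.66 and -1.58 on WT vehicle arrays and at -1.78, -2.51 and -2.53 with Dex. In GR-C3 cells it lay at -2.36, -2.60 and -2.41 under vehicle and at -2.55, -2.78 and -3.05 with Dex. The WT arrays fell apart into high and low values under both treatments, with WT vehicle replicate 1, as labelled, among the low ones. Under vehicle Nr2f1 was lower in GR-C3 cells with 11 arrays (-0.84 ± 0.22, 1.78-fold, adjusted p = 0.0204) and did not pass with 12 (-0.56 ± 0.26, adjusted p = 0.1415). With slide as a block the 11-array difference was -0.12 (adjusted p = 0.845). The call was also lost without WT vehicle replicate 2 (-0.87, adjusted p = 0.0900) or 3 (-0.80, adjusted p = 0.1245), each of which leaves 1 array in that group, or without GR-C3 vehicle replicate 2 (-0.76, adjusted p = 0.0653). The WT Dex array on slide 2, replicate 1, was the high one of its group and shared its slide with the other high WT arrays.

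The main Nr2f2 probe (chromosome 7, 66209217 to 66209276, minus strand) lay at 2.33, 2.31 and 2.07 on WT vehicle arrays and at 2.34, 2.33 and 1.98 with Dex. The GR-C3 values were 2.17, 2.07 and 1.95 under vehicle and 2.50, 2.44 and 2.51 with Dex. The GR-C3 Dex arrays were above every other array. The Dex difference in GR-C3 cells was 0.42 ± 0.12, which did not pass (adjusted p = 0.218 with 12 arrays and 0.0925 with 11). The probe at 66210289 to 66210348 gave 0.61 ± 0.27 and that at 66221467 to 66221526 gave 0.31 ± 0.21, and neither was called. With 11 arrays it was called with quantile normalization (0.45, adjusted p = 0.0418) and without WT Dex replicate 3 (0.42, adjusted p = 0.0448). The mean of the 3 Nr2f2 probes gave a genotype difference under Dex of 0.40 that was called (adjusted p = 0.0434, and 0.0161 with 11 arrays), where the main probe gave 0.26 (adjusted p = 0.1295, and 0.0990 with 11). In WT cells the main probe differed by -0.02 ± 0.12, with a 95% interval from -0.29 to 0.25. Nr2f6, a further gene of the family and no member of the set, lay between 3.30 and 3.74 on all arrays, and no comparison of it passed.

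**Figure D3:**
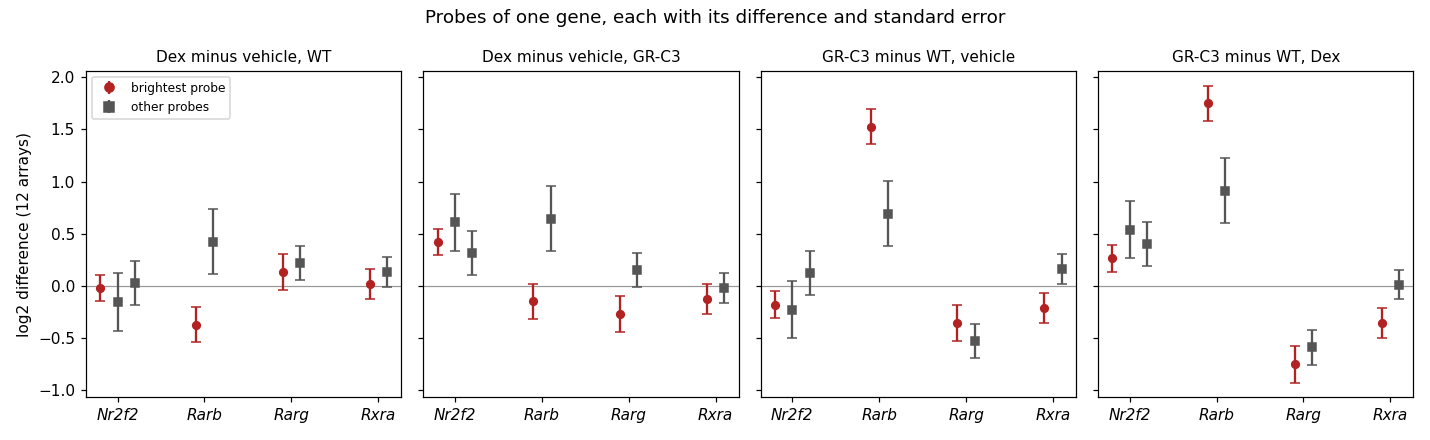
Log2 differences, with standard errors, of each probe of the 4 receptor genes with several probes, on 12 arrays. Round red points are the brightest probe of each gene and square points the others. The 2 Rarb probes are both above 0 for genotype, at 1.52 and 0.69 under vehicle, and have opposite signs for Dex. The dimmer Rarb probe passed the filter only through the GR-C3 Dex arrays, where it was highest.

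Some of the genes that make, carry and break down retinoids were called between the genotypes, in both directions. Of 22 genes of this list tested, 5 were higher and 3 lower in GR-C3 cells under vehicle and 8 higher and 4 lower under Dex with 12 arrays, where 24.8% and 29.6% of all genes were called. With 11 arrays these counts were 7 and 4, and 9 and 7, where 27.3% and 40.7% of all genes were called. The median difference of the list was 0.15 under vehicle and 0.25 under Dex, beside 0.11 and 0.13 for all genes. Aldh1a2, the main retinoic acid synthesising enzyme of embryonic mesoderm, lay between -3.58 and -2.79 on WT arrays and between -0.79 and -0.70 on GR-C3 arrays, with no overlap. It was 6.87-fold higher in GR-C3 cells under vehicle (2.78 ± 0.17, adjusted p = 1.45e-06) and 4.99-fold higher under Dex (2.32 ± 0.17, adjusted p = 4.54e-06).

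A sister enzyme, Aldh1a3, was 4.39-fold higher under vehicle (2.13 ± 0.26, adjusted p = 1.76e-04) and 3.34-fold higher under Dex. Aldh1a1, which oxidises retinaldehyde and other aldehydes, went the other way: it was 5.74-fold lower under vehicle (-2.52 ± 0.19, adjusted p = 6.45e-06) and 4.82-fold lower under Dex. Aldh1a7, its close paralog, was 4.96-fold and 4.25-fold lower, and since the 2 genes are near copies, signal of 1 on the probe of the other was not checked. Crabp2, which delivers retinoic acid to nuclear receptors, was 2.89-fold higher under vehicle (1.53 ± 0.14, adjusted p = 2.43e-05) and 2.53-fold higher under Dex.

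**Figure D4:**
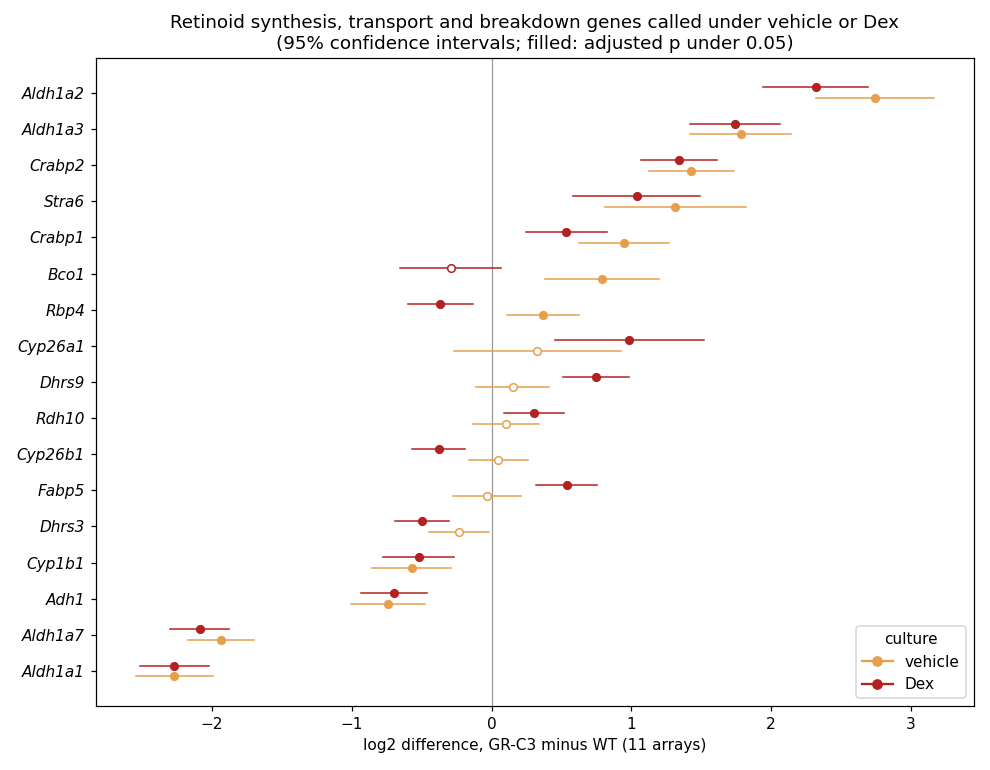
Log2 difference between GR-C3 and WT cells, with 95% confidence intervals on 11 arrays, of the 17 genes of retinoid synthesis, transport and breakdown, of 22 tested, that were called under vehicle (orange) or Dex (red). Filled points have an adjusted p under 0.05. Aldh1a2 stands at 2.74 and 2.32, and Aldh1a1 at -2.27 and -2.27.

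Dex called none of these 22 genes in either genotype with 12 arrays. With 11 arrays 6 rose and 3 fell in WT cells, and 4 rose and 1 fell in GR-C3 cells, beside 12.2% and 3.47% of all genes called. Cyp26b1, which degrades retinoic acid, rose in both, by 1.57 ± 0.09 in WT cells (adjusted p = 7.71e-06) and by 1.14 ± 0.08 in GR-C3 cells (adjusted p = 8.81e-05). Dhrs3, which reduces retinaldehyde back to retinol, rose by 0.91 ± 0.10 and 0.64 ± 0.09. Aldh1a1 rose by 0.67 ± 0.12 and 0.67 ± 0.11, and Aldh1a7 by 0.94 ± 0.11 and 0.79 ± 0.09. Aldh1a3 fell by 0.80 ± 0.16 and 0.84 ± 0.14 on the log2 scale. The list had no interaction call with 11 arrays.

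Some of the known retinoic acid responsive genes were called, in both directions. This list of 15 tested genes, which holds Rarb and shares Crabp2, Cyp26a1, Cyp26b1, Dhrs3, Stra6 and 1 further gene with the list above, had 3 genes higher and 5 lower in GR-C3 cells under vehicle and 4 and 4 under Dex with 12 arrays, beside 24.8% and 29.6% of all genes called. With 11 arrays the counts were 3 and 6, and 4 and 9, beside 27.3% and 40.7%. Its median difference under vehicle was -0.42 with 12 arrays and -0.23 with 11, and under Dex it was -0.42 with either, beside medians over all genes of 0.11 and 0.12 under vehicle and 0.13 under Dex. Crabp2 and Rarb were among the higher genes. Meis1, a homeobox gene of proximal limb mesenchyme, was 2.61-fold lower under vehicle (-1.39 ± 0.14, adjusted p = 6.50e-05) and 3.38-fold lower under Dex (-1.76 ± 0.14, adjusted p = 1.24e-05). Rarres2, the gene of the adipokine chemerin, was lower by 1.25 ± 0.16 and 1.40 ± 0.16 on the log2 scale. With 11 arrays, Dex raised the transglutaminase gene Tgm2 by 1.27 ± 0.10 in WT and 1.17 ± 0.09 in GR-C3 cells.

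The cAMP and immediate early genes, a list of 19 that holds Nr4a1, Nr4a2 and Nr4a3, had 8 genes higher and 1 lower in GR-C3 cells under vehicle with either set of arrays. Of all genes, 14.6% were higher and 10.2% lower there with 12 arrays, and 16.2% and 11.1% with 11. Under Dex 6 of the list were higher and 3 lower with 12 arrays, and 9 and 4 with 11, beside 17.5% and 12.1%, and 24.6% and 16.1%, of all genes. Its median difference was 0.40 under vehicle and 0.37 under Dex with 12 arrays, beside 0.11 and 0.13 for all genes. Egr2, an immediate early zinc finger gene, was higher under vehicle by 1.56 ± 0.17 (adjusted p = 9.56e-05), and Pde4b, a cAMP phosphodiesterase gene, by 0.78 ± 0.13 (adjusted p = 0.00186). Under Dex Pde4b was higher by 1.20 ± 0.13 (adjusted p = 1.04e-04), and Areg, an EGF receptor ligand gene not above background in WT Dex cells, was at least 2.41-fold higher. Areg passed the filter only through GR-C3 arrays, where it was higher, so no p-value is given for it. It is nonetheless among the genes counted above as higher, under vehicle and under Dex with either set of arrays. Those counts and medians are therefore a description. Under Dex the phosphatase gene Dusp1, which glucocorticoids induce, was lower by 1.07 ± 0.20 on the log2 scale.

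With 12 arrays Pde4b was the 1 gene of the list called for Dex in WT cells, where it fell by 1.16 ± 0.13 (adjusted p = 0.0247), and none was called in GR-C3 cells. With 11 arrays 4 rose and 6 fell in WT cells and 2 rose and 4 fell in GR-C3 cells, beside 12.2% and 3.47% of all genes called. The circadian gene Per1 rose by 2.14 ± 0.12 in WT and 1.92 ± 0.11 in GR-C3 cells, and Sik1, a kinase gene of the cAMP pathway, by 2.11 ± 0.19 and 1.32 ± 0.17. Pde4b fell by 1.27 ± 0.13 and 0.74 ± 0.11. Fos rose by 1.75 ± 0.21 in WT cells and differed by 0.18 ± 0.19 in GR-C3 cells, and the difference between these responses was called (-1.57 ± 0.28, adjusted p = 0.0289) and with 12 arrays was not (adjusted p = 0.872).

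Among 35 tested genes of other nuclear receptors, 5 were higher and 6 lower in GR-C3 cells under vehicle and 8 higher and 5 lower under Dex with 12 arrays, beside 24.8% and 29.6% of all genes called. With 11 arrays the counts were 4 and 7, and 11 and 5, beside 27.3% and 40.7%. Their median difference with 12 arrays was 0.18 and 0.14, beside 0.11 and 0.13 for all genes. Pgr, the progesterone receptor gene, passed as above background on 0 of 6 WT arrays, and in GR-C3 cells on 2 of 3 with vehicle and 3 of 3 with Dex. Pgr passed the filter only through the GR-C3 Dex arrays, where it was highest, so no p-value is given for it. Its level under Dex was at least 2.33-fold that in WT cells. Under vehicle it measured -5.70, -5.98 and -5.31 in GR-C3 cells, with replicate 2 not above background, and -8.35, -8.73 and -8.16 in WT cells. Rora was 2.34-fold lower under vehicle (-1.23 ± 0.12, adjusted p = 5.02e-05), and Nr1h3, the liver X receptor alpha gene and a partner of retinoid X receptors, was lower by 0.80 ± 0.14 under vehicle and by 1.16 ± 0.14 under Dex. Thra, a thyroid hormone receptor gene whose product pairs with retinoid X receptors, was lower by 0.79 ± 0.16 under vehicle.

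Dex called none of these 35 genes with 12 arrays. With 11 arrays 4 rose and 6 fell in WT cells and 2 rose and 4 fell in GR-C3 cells, beside 12.2% and 3.47% of all genes called. Vdr, the vitamin D receptor gene, rose by 1.50 ± 0.08 and 1.25 ± 0.07, and Nr1d2, a circadian repressor gene, fell by 0.68 ± 0.10 and 0.54 ± 0.09. Nr2e1, which lies in the Nr2 branch of the family with the COUP-TFs, fell by 1.30 ± 0.09 in WT and 0.53 ± 0.08 in GR-C3 cells, and the difference was called (0.77 ± 0.13, adjusted p = 0.0217). Ppara rose 2.001-fold in WT cells (adjusted p = 7.31e-04) and differed by 0.09 ± 0.11 in GR-C3 cells, and the difference between the responses was called (-0.91 ± 0.17, adjusted p = 0.0366). In GR-C3 cells it lay between -6.28 and -6.02 and was well above background on 2 of 3 vehicle and 2 of 3 Dex arrays, so its small Dex difference there, and with it that call, rests on values at the edge of detection. With 12 arrays neither was called (adjusted p = 0.925 for Nr2e1 and 0.952 for Ppara).

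Of 18 coregulator genes, 4 were higher and 2 lower in GR-C3 cells under vehicle and 2 higher and 3 lower under Dex with 12 arrays, near the 24.8% and 29.6% of all genes called. With 11 arrays the counts were 5 and 1, and 4 and 5, beside 27.3% and 40.7%. Their median difference with 12 arrays was -0.07 and 0.11, beside 0.11 and 0.13 for all genes. Bcl11b, also named CTIP2 for its binding to COUP-TFs, was 3.86-fold higher under vehicle (1.95 ± 0.15, adjusted p = 9.02e-06) and 3.83-fold higher under Dex. Tbl1xr1, a subunit of nuclear receptor corepressor complexes, was 1.81-fold lower under vehicle (-0.86 ± 0.16, adjusted p = 0.00296). The coactivator gene Ncoa3 was higher under vehicle by 0.54 ± 0.10.

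The genes whose levels ran most alike to each receptor gene over the 11 arrays were taken by Pearson's r, as a description of arrays that share group and slide. For Rara the nearest was Tbl1xr1, at r = 0.974. For Rarb they were Camsap3, Ppp1r1a and Bcl3, at 0.995, 0.992 and 0.992. For Rarg they were Ubl7, Rnf123 and Cd320, at 0.972, 0.967 and 0.960. For Nr4a1 the nearest was Hebp2 at 0.937, for Nr4a2 Olfr558 at 0.953, for Nr2f1 Tmco3 at 0.974, for Rxra Sqstm1 at 0.968 and for Rxrg Rabep2 at 0.956. Nr2f2 had the loosest of these, Rtn4r at 0.906. For Nr4a3 the 3 nearest included the olfactory receptor genes Olfr920 and Olfr1355, at 0.959 and 0.948, with Nr4a3 above background on 6 of 12 arrays.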

How the data were processed

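RNA from MEFs was measured on 12 one-colour Agilent arrays, 3 per group. The deposited intensity values are processed signals that Feature Extraction 9.5.3.1 made from Cy3 scans, per the file headers, which place the probes on mm7. The annotation of exons on that build was not used here. From the 45018 spots of an array, 1639 control spots and outlier spots were left out, spots of a probe were averaged, and each array's 75th percentile was subtracted on the log2 scale. Of 41174 probes, 30934 were kept, those that passed as well above background throughout 1 or more groups. The probe with the highest mean stood for a gene. limma 3.58.1 in R 4.3.3 was fitted to the 4 groups, with Benjamini-Hochberg adjustment over 20836 genes. An at-least fold uses, on each array of the group not well above background, the larger of the measured signal and the lowest signal well above background. The fit was tested on simulated data. Replicate numbers were not used to pair the samples. Deviations of arrays with the same number correlated at r from -0.22 to 0.21, which cannot exclude pairing, since arrays with different numbers were not compared. The members and lists were chosen with earlier results of these data known. Genes named were the members and, from each list and comparison, up to 4 called genes with the smallest p, with the family relatives Rxrb and Nr2f6 added. Alternatives were quantile normalization, normexp with an offset of 50, the mean of all probes of a gene, no filter, slide or replicate number as a block, and leaving out each array. Normexp on repaired local backgrounds was added after the data were seen. Some genes of the lists are not reported here by name.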

Additional observations from a re-analysis of the deposited data

Results flagged for a closer look

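By the interaction term of limma on 11 arrays, the Dex response differed between the genotypes for 3 genes of the lists, cell type markers left out. None of the 10 receptor genes was called. Nr2e1 differed by 0.77 (adjusted p = 0.0217), Fos by -1.57 (adjusted p = 0.0289) and Ppara by -0.91 (adjusted p = 0.0366), each as GR-C3 minus WT on the log2 scale. None of the 3 was called with 12 arrays. Among the cell type markers, Kdr of the endothelial list differed by 1.10 with 11 arrays (adjusted p = 0.0125, and 0.503 with 12). With 11 arrays Dex lowered Kdr in WT cells (-0.51) and raised it in GR-C3 cells (0.59).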

How the results depend on the processing

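Values are with 12 arrays unless 11 are named, and the cause of each change was not tested. Normexp on the deposited local backgrounds, which reached 65361 on 1 WT Dex array against medians of 49.5 to 61, left 0 of the 10 genes called in the genotype comparisons with either set and 0 for Dex with 11 arrays. It turned Dex in WT for Nr2f1 (0.75), Nr4a2 (0.034), Rarb (1.19), Rxra (-0.48) and Rxrg (1.79), the interaction of Nr2f1 (-0.75), Nr4a3 (-1.92), Rara (-1.42), Rarb (-1.22) and Rxra (0.31), Rara under vehicle (0.31), and under Dex Nr4a1 (0.32), Nr4a3 (-1.03), Rxra (0.011) and Rxrg (-1.0045), the last 4 with 11 arrays too. With 11 arrays it also turned Dex in WT for Nr2f1 (0.55), Nr2f2 (-0.38), Nr4a2 (0.20), Rarb (1.04), Rxra (-0.42) and Rxrg (1.72), the interaction of Nr2f1 (-0.55), Nr4a3 (-1.90), Rara (-1.46), Rarb (-1.07) and Rxra (0.26), and Rara under vehicle (0.35). Repaired backgrounds turned Rxrg for Dex in WT (0.0005) and the Rara interaction (-0.033, and -0.0615 with 11 arrays), and left 0 genes called for Dex in WT with 11 arrays.

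The mean of all probes also left 0 there, and turned Rarb for Dex in WT (0.025) and in GR-C3 (0.25 with 12 or 11 arrays), and with 11 arrays Nr2f2 (0.021) and Rxra (0.079) under vehicle. Quantile normalization called 1 gene for Dex in GR-C3 (2 with 11 arrays) and 5 for genotype under Dex. Slide as a block, in which the array alone on slide 1 adds nothing to a difference, called 1 for Dex in WT, 1 for genotype under vehicle with 12 or 11 arrays, and with 11 arrays 0 for Dex in GR-C3 and 2 for genotype under Dex. It turned Nr2f2 for Dex in WT (0.15) and under vehicle (0.11), the Nr4a3 interaction (-1.04), and Rxrg under vehicle (-0.37) and Dex (-0.41), these but the first with 11 arrays too, where the Nr2f1 interaction (-0.22) and Nr4a1 under Dex (0.0205) also turned. With replicate number as a block 2 genes, Nr2f1 and Rarb, were called for Dex in WT with 11 arrays, and whether these numbers pair the samples is not known.

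Leaving out 1 array at a time gave, with 12 and then 11 arrays, 0 to 1 and 0 to 2 genes called for Dex in WT, 0 to 1 and 1 to 2 for Dex in GR-C3, 1 to 4 and 1 to 5 for genotype under vehicle, 2 to 4 and 3 to 6 for genotype under Dex, and 0 for the interaction. Rxra for Dex in WT turned without WT Dex replicate 2 (-0.13). Rarb was called in both genotype comparisons under every alternative but normexp on the deposited backgrounds.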
